A study of Mus musculus with 7 samples.

Results

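Nrg4, the other ligands of the epidermal growth factor (EGF) receptor family and the receptors themselves were followed in mouse livers in which hepatocytes were to lose Dicer1. The genes were taken by their symbol in the array's annotation: 7 ligands (Nrg4, Nrg1, Egf, Areg, Btc, Hbegf and Tgfa) and 3 receptors (Egfr, Erbb2 and Erbb3). The family was chosen by the measured fall of Nrg4 on these arrays at both times, so the values of Nrg4 are given as a description with no test. Of the 10 genes, 9 had a value among the 16819 genes with a single symbol, and each of the 9 had 1 probe set. No row carried the symbol Areg alone, and Areg was not analysed here.

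All mice were Dicer1 fl/fl males of mixed background (129S4 and C57BL/6). AAV8-Ttr-Cre, an adeno-associated virus with Cre recombinase behind the transthyretin promoter, was given at 8 to 10 weeks of age. That promoter is active in hepatocytes, so the other cells of the liver were to keep Dicer1, the enzyme that makes mature microRNAs. Livers were taken after a fast of 4 hours, and total RNA was hybridised to Affymetrix arrays, which report 1 log2 signal per probe set. There were 3 control arrays (Dicer1 fl/fl, 0 weeks), 2 arrays 2 weeks after the virus and 2 arrays 4 weeks after it, each labelled as a biological replicate. Neither a virus without Cre nor a control liver of the later times was among the arrays, so deletion, virus, Cre and elapsed time cannot be told apart.

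ErbB receptors are tyrosine kinases of the cell surface that pair up when an EGF-like ligand binds, and the pairs start the Ras-ERK and PI3K-Akt relays. Egfr binds Egf, transforming growth factor alpha (Tgfa), betacellulin (Btc) and heparin-binding EGF (Hbegf). Neuregulins bind Erbb3, Erbb4 or both, and the main receptor of neuregulin 4 is Erbb4, not Erbb3. Erbb2 has no ligand of its own and serves as a partner, and Erbb3 has a weak kinase and signals through its partner. Hepatocytes are rich in Egfr, and neuregulin 4 is known as a hormone-like signal that acts on the liver.

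The arrays matched their labels in the gene that was to be deleted. Dicer1 read 8.73, 8.71 and 8.58 on the controls, 8.03 and 7.79 after 2 weeks and 7.97 and 8.05 after 4 weeks, so that each array after Cre lay below each control. The limma fit gave differences of -0.76 (SE 0.0873, adjusted p = 0.0158) and -0.66 (SE 0.0873, adjusted p = 0.0159). Array medians lay between 7.07 and 7.09. Of 21093 probe sets, 12576 (59.6%) carried exactly the same value on 2 or more arrays, for a reason not given in the sources used here; such ties make a gene look less variable than it may be. The mean of 8 hepatocyte markers ran from 13.51 to 13.54 on the controls and from 13.36 to 13.41 after Cre.

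Nrg4 had the largest difference of the family, and it was lower after Cre. Its log2 signal was 8.38, 8.69 and 8.56 on the 3 controls, 6.05 and 6.11 after 2 weeks and 6.07 and 6.19 after 4 weeks. All 4 arrays after Cre were far below the controls, and the 2 times overlapped each other, with the 4-week arrays on either side of the higher 2-week array. The difference from control was -2.47 at 2 weeks (SE 0.0978), a signal 5.53-fold lower, and -2.41 at 4 weeks (SE 0.0978), 5.33-fold lower. Between the times the difference was 0.05 (SE 0.107).

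Few genes were lower by more. Ranked by log2 difference, Nrg4 was 10th from the bottom of 16819 genes at 2 weeks and 16th at 4 weeks. Leaving out any 1 array moved the 2-week difference between -2.55 and -2.39 and the 4-week difference between -2.49 and -2.34. The 7 values of Nrg4 all differed from one another. No detection call was used, so whether 6.05 to 6.19 lies above the background of the array is not known here. In whole liver, fewer cells that express a gene and less RNA per cell cannot be told apart.

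The stretch of 250 bases upstream of the Nrg4 start is shown because Nrg4 is the gene with the large change; it comes from RefSeq on GRCm38.p6, chr9:55283626-55283875, minus strand, written 5′ to 3′ along the gene. Capitals mark TGACCT, the reverse complement of AGGTCA, a core motif of nuclear receptors.
Nrg4: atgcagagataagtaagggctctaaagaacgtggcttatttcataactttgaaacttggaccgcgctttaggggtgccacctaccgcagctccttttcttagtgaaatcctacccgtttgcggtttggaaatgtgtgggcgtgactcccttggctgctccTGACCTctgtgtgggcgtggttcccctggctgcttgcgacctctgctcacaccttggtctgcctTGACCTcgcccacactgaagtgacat
The sequence holds 2 such matches, whose nearer ends lie 85 and 21 bases before the start. Its GC content is 53.2%, beside a median of 52.4% over all promoters. Neither the E-box CACGTG nor the AP-1 site TGANTCA occurs in it on either strand, and the matches do not overlap each other. Among 32851 RefSeq promoters of this length, 14.0% hold AGGTCA, 6.02% CACGTG and 6.75% TGANTCA. RefSeq promoters were found for 7 of the 10 ligands and receptors, and apart from Nrg4 none of them (Egf, Areg, Btc, Tgfa, Egfr and Erbb2) holds any of the 3 motifs. The motifs were picked after the values were seen, and a match is a description of the letters, not a bound site.

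**Figure D1:**
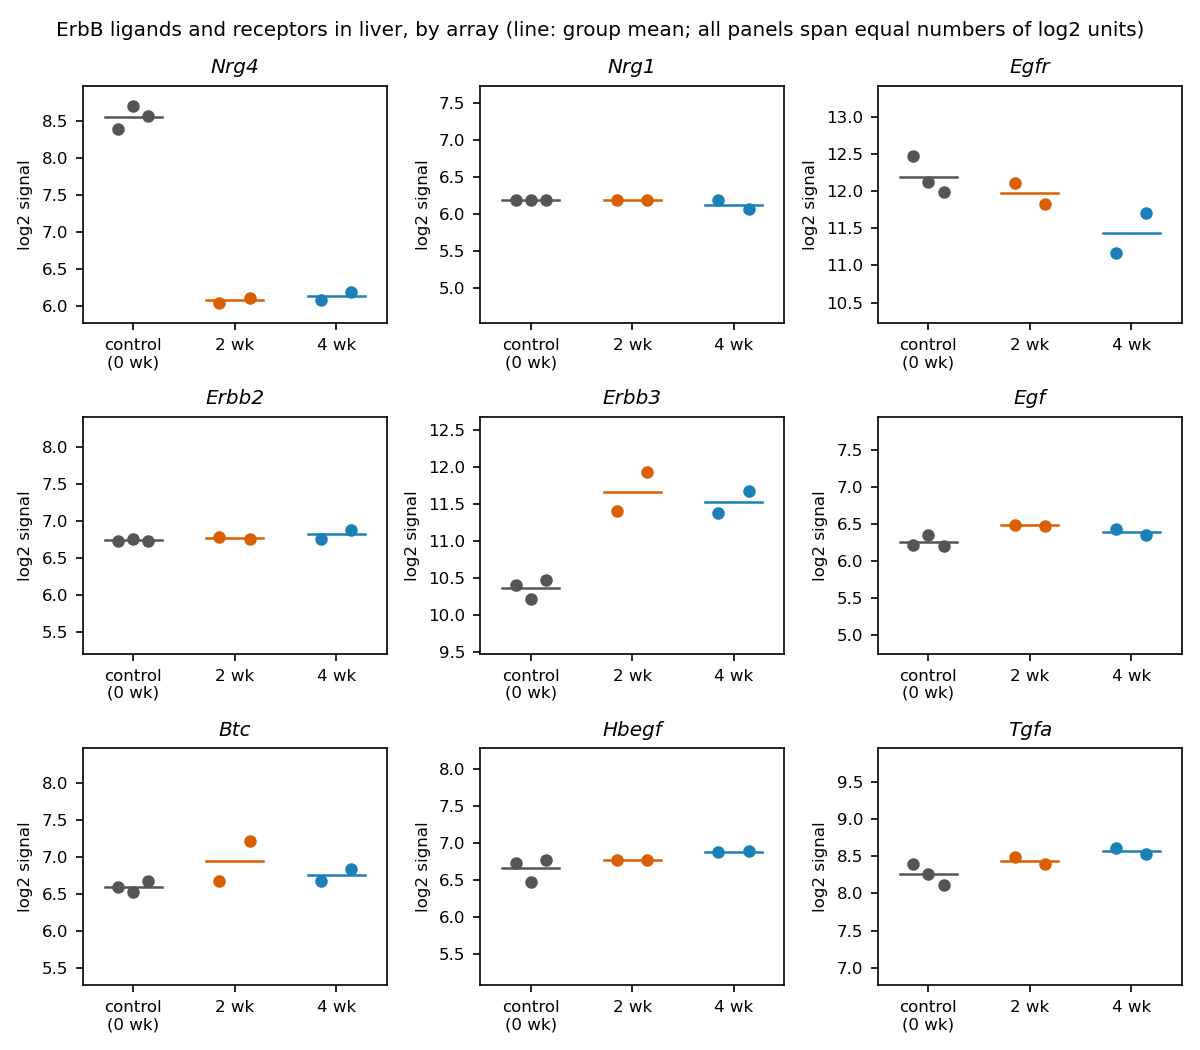
Log2 signal (vertical axis, each panel spanning the same number of log2 units) of the 9 measured ErbB ligands and receptors on the 3 control arrays, the 2 arrays at 2 weeks and the 2 at 4 weeks (horizontal axis); points are arrays and lines are group means. Nrg4 drops from 8.38 or more to 6.19 or less, Erbb3 goes from 10.47 or less to 11.37 or more, and the groups of the other 7 genes lie close together or overlap.

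Among the other 8 measured genes, only Erbb3 passed the threshold, an adjusted p under 0.05 in limma over all 16819 genes. That is 1 higher and 0 lower at 2 weeks, where 3.46% of all genes were called higher and 2.47% lower (5.93% in either direction), and 1 higher and 0 lower at 4 weeks, where 5.15% were called higher and 4.62% lower (9.77% together). A single gene of 8 gives no rate to set against those shares. At an unadjusted p under 0.05 there were 2 genes at 2 weeks and 3 at 4 weeks. The median difference of the 8 was 0.15 and 0.14, against -0.002 and 0.008 over all genes. Both comparisons use the same 3 control arrays, so their values stand side by side and do not check each other.

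Nrg1, the other neuregulin of the set, read 6.18 on 6 arrays, with exactly the same deposited value, and 6.07 on the second 4-week array. Its difference was 0.00 at 2 weeks (adjusted p = 1) and -0.06 at 4 weeks (SE 0.0461, adjusted p = 0.532). The ties leave hardly any information on Nrg1.

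The mean of each Egfr ligand lay slightly above that of the controls at both times, and none passed. Egf, Btc and Hbegf had mean signals of 6.36, 6.74 and 6.76, under the array medians of 7.07 to 7.09, and Tgfa had 8.40. Without a detection call, whether Egf, Btc and Hbegf lie above the background of the array is not known here. Egf, the founding ligand of the family, read 6.22, 6.35 and 6.21 on the controls, 6.49 and 6.48 after 2 weeks and 6.43 and 6.35 after 4 weeks. Its differences were 0.22 (SE 0.0599, adjusted p = 0.0912) and 0.13 (SE 0.0599, adjusted p = 0.251). Of the 4 arrays after Cre 3 lay above all controls, and the second 4-week array tied with the highest control.

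Tgfa, a ligand that hepatocytes can make for themselves, read 8.40, 8.26 and 8.12 on the controls, 8.49 and 8.40 after 2 weeks and 8.61 and 8.53 after 4 weeks. Only the second 2-week array failed to exceed the highest control, with which it tied. Differences were 0.18 (SE 0.0903, adjusted p = 0.301) at 2 weeks and 0.31 (SE 0.0903, adjusted p = 0.0968) at 4 weeks.

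Btc, betacellulin, read 6.59, 6.53 and 6.67 on the controls, 6.67 and 7.22 after 2 weeks and 6.67 and 6.84 after 4 weeks. The second 2-week array stands well above all others, and an array of each later time has exactly the value of the highest control. Its differences were 0.34 (SE 0.162, adjusted p = 0.281) and 0.16 (SE 0.162, adjusted p = 0.623). Without replicate 1 at 2 weeks, which leaves the high array alone, Btc passed at 2 weeks with 0.62 and an adjusted p of 0.0281, so that call rests on 1 array.

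Hbegf, a ligand released quickly after liver injury, read 6.74, 6.48 and 6.78 on the controls, 6.78 on both 2-week arrays, and 6.88 and 6.89 at 4 weeks. At 2 weeks both arrays had exactly the value of the highest control, and at 4 weeks both lay above it. Differences were 0.11 (SE 0.0948, adjusted p = 0.531) and 0.22 (SE 0.0948, adjusted p = 0.231).

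Erbb3, a neuregulin receptor though not the main one of neuregulin 4, was the receptor that rose. It read 10.40, 10.22 and 10.47 on the controls, 11.40 and 11.93 after 2 weeks and 11.37 and 11.68 after 4 weeks. Each array after Cre lay above each control, and the 2 times overlapped. The rise was 1.30 at 2 weeks (SE 0.182, 2.46-fold, adjusted p = 0.0233) and 1.16 at 4 weeks (SE 0.182, 2.23-fold, adjusted p = 0.0219). The times differed by -0.14 (SE 0.2, adjusted p = 0.904). By size of rise Erbb3 was 71st of 16819 genes at 2 weeks and 121st at 4 weeks.

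The call on Erbb3 was often lost when 1 array was left out. At 2 weeks it kept an adjusted p under the threshold only without replicate 1 at 2 weeks (0.0169). The adjusted p became 0.0821, 0.092 and 0.0902 without control replicate 1, 2 and 3, 0.0696 without replicate 2 at 2 weeks, and 0.0584 without either 4-week array. At 4 weeks it was 0.0171 without either 2-week array, 0.0727, 0.08 and 0.0757 without control replicate 1, 2 and 3, and 0.0854 and 0.122 without replicate 1 and 2 at 4 weeks. Over these fits the rise ran from 1.04 to 1.56 at 2 weeks and from 1.005 to 1.32 at 4 weeks. Without either 4-week array the 2-week rise stayed at 1.30, with an SE of 0.185 beside 0.182 in the full fit. Each omission leaves fewer residual degrees of freedom for all genes, so a lost call is not by itself a sign of 1 influential array.

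Egfr, the receptor that hepatocytes carry in abundance, read 12.48, 12.13 and 12.00 on the controls, 12.11 and 11.83 after 2 weeks and 11.17 and 11.71 after 4 weeks. Of the arrays after Cre, 3 lay below all controls, and the first 2-week array lay between controls. Its differences were -0.23 at 2 weeks (SE 0.217, adjusted p = 0.59) and -0.76 at 4 weeks (SE 0.217, adjusted p = 0.0908), so neither passed. The first 4-week array carries much of the latter: leaving out single arrays gave -1.04 to -0.49.

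Erbb2, the shared partner, read 6.74, 6.77 and 6.73 on the controls, 6.79 and 6.77 after 2 weeks and 6.77 and 6.89 after 4 weeks. Controls and later arrays overlapped, 3 arrays had the same value, and all lay under the array medians of 7.07 to 7.09. Differences were 0.03 (SE 0.0498, adjusted p = 0.744) and 0.08 (SE 0.0498, adjusted p = 0.384).

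**Figure D2:**
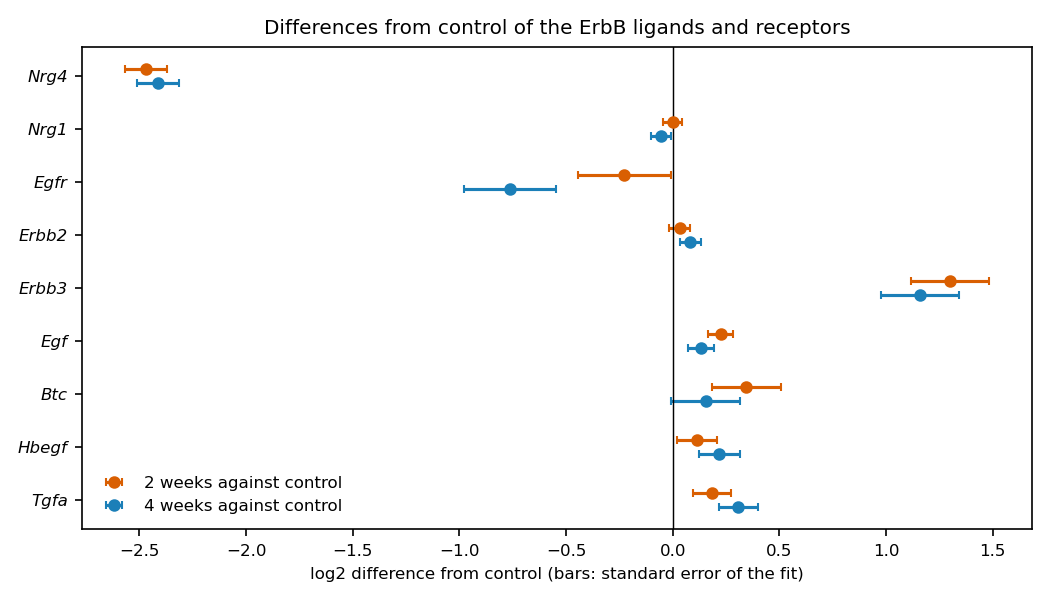
Log2 difference from control (horizontal axis) of the 9 measured ErbB ligands and receptors at 2 and 4 weeks; points are estimates of the fit over all 7 arrays and bars their standard errors. Nrg4 lies at -2.47 and -2.41, Erbb3 at 1.30 and 1.16, Egfr at -0.23 and -0.76, Btc at 0.34 and 0.16, and Tgfa at 0.18 and 0.31.

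The 4-week and 2-week arrays were also compared directly. None of the 8 genes passed in limma, and none had an unadjusted p under 0.05; of all genes, 0.00595% were called in this comparison. The largest differences were those of Egfr (-0.54, SE 0.238, adjusted p = 0.706) and Btc (-0.19, SE 0.177, adjusted p = 0.834). Averaging both times against the controls, a comparison added after the values were seen, again called Erbb3 alone (1.23, SE 0.153, adjusted p = 0.00978). In it 12.9% of all genes were called, 6.79% higher and 6.12% lower. Egf stood at 0.18 (adjusted p = 0.0771) and Tgfa at 0.25 (adjusted p = 0.0973). Without control replicate 2 this average called none of the 8 and without replicate 1 at 2 weeks it called 2.

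Other ErbB genes were taken from 5 lists of 71 genes in all, of which 65 had a value. At 2 weeks 7 rose and 1 fell, beside the 3.46% and 2.47% of all genes, and at 4 weeks 12 rose and 1 fell, beside 5.15% and 4.62%. The median difference was 0.13 and 0.09, against -0.002 and 0.008 over all genes. On 22 of the 65 genes all 4 arrays after Cre lay above all 3 controls, a pattern that 12.9% of all genes had, and on 7 they lay below, as did 12.2%. Averaging both times gave 16 higher and 4 lower, beside 6.79% and 6.12%. The lists were chosen with results of these data in view, so a share above the background is a description of them.

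These counts changed when single arrays were left out. Each omission also leaves fewer residual degrees of freedom for all genes, and the calls over all genes in these omissions are not given here. Whether pathway genes lost calls more than other genes was not tested. With only the 2 groups compared at 2 weeks, 3 pathway genes were called in limma, and 276 of all genes in place of 997. Against the 8 genes called at 2 weeks, 3, 1 and 0 were called without control replicate 1, 2 and 3, 16 and 6 without replicate 1 and 2 at 2 weeks, and 3 without either 4-week array. Against the 13 called at 4 weeks, 3, 2 and 2 were called without control replicate 1, 2 and 3, 0 and 1 without replicate 1 and 2 at 4 weeks, and 15 without either 2-week array. For the average of both times, 20 in all, the number was 6, 4 and 3 without control replicate 1, 2 and 3, 22 and 18 without replicate 1 and 2 at 2 weeks, and 8 and 9 without replicate 1 and 2 at 4 weeks. Each pathway gene called at 2 or at 4 weeks lost that call in one or more of these omissions, and none of these called genes turned direction in them.

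Of the rest of the family, Erbb4, the main receptor of neuregulin 4, was the least steady. It read 7.12, 6.20 and 6.999 on the controls, 7.12 and 7.67 after 2 weeks and 8.10 and 6.16 after 4 weeks. The first 2-week array had exactly the value of the highest control and the second lay above all controls. Of the 4-week arrays, the first lay above and the second below all controls. The differences of 0.62 (SE 0.61, adjusted p = 0.598) and 0.36 (SE 0.61, adjusted p = 0.782) did not pass. Nrg2, Nrg3 and Ereg (epiregulin) lay within 0.13 of the control level at both times. None of these 4 genes was called in limma at either time, nor had any an unadjusted p under 0.05.

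**Figure D3:**
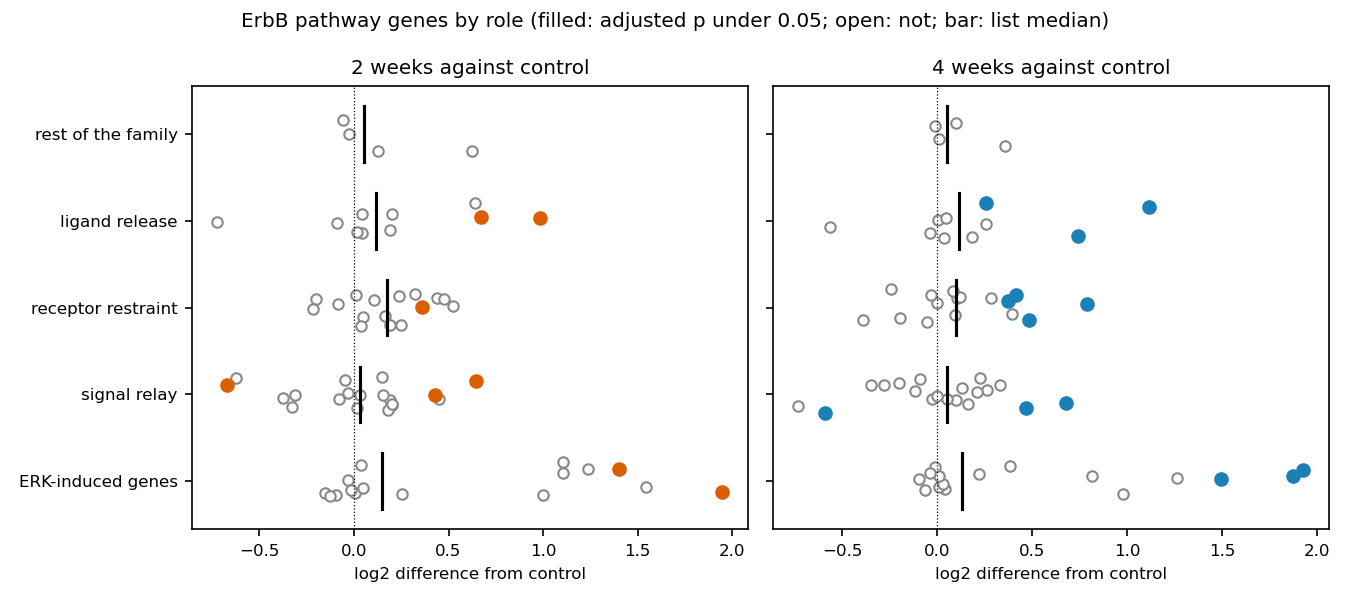
Log2 difference from control (horizontal axis) of 65 ErbB pathway genes in 5 lists (vertical axis) at 2 weeks (left) and 4 weeks (right); each point is a gene, filled where its adjusted p was under 0.05, and each bar is the median of the list. Filled points number 7 above 0 and 1 below at 2 weeks and 12 and 1 at 4 weeks, while list medians stay under 0.18.

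EGF-like ligands are made as membrane proteins and cut free at the cell surface, and among the 10 genes of ligand release the main cutting enzymes rose. Adam10, the sheddase of Egf and Btc, read 8.84, 8.77 and 8.87 on the controls, 9.54 and 10.09 after 2 weeks and 9.91 and 9.98 after 4 weeks. All later arrays lay clear of the controls, with a rise of 0.99 (SE 0.155, 1.98-fold, adjusted p = 0.0296) and 1.11 (SE 0.155, 2.17-fold, adjusted p = 0.0179). Leaving out single arrays gave adjusted p-values from 0.00913 to 0.109 at 2 weeks and from 0.00555 to 0.104 at 4 weeks, and in both comparisons the call was kept only without a 2-week array.

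Adam17, the sheddase of Tgfa and Hbegf, read 9.02, 8.86 and 9.03 on the controls, 9.44 and 9.84 after 2 weeks and 9.64 and 9.78 after 4 weeks. Again the groups did not overlap, and the rise was 0.67 (SE 0.131, 1.59-fold, adjusted p = 0.0467) and 0.74 (SE 0.131, 1.67-fold, adjusted p = 0.0282). Rhbdl2, a rhomboid protease that can cut Egf, rose at 4 weeks by 0.26 (SE 0.046, adjusted p = 0.0286). Its signal was low, with 5.84, 5.87 and 5.92 on the controls and 6.18 and 6.10 after 4 weeks. These values lie under the array medians of 7.07 to 7.09, and a filter on genes under the 25th percentile dropped Rhbdl2. Timp3, the inhibitor of Adam17, read 9.03, 8.92 and 8.92 on the controls, 7.93 and 8.54 after 2 weeks and 8.37 and 8.41 after 4 weeks, each later array below each control. Its differences of -0.72 (adjusted p = 0.0732) and -0.57 (adjusted p = 0.11) missed the threshold, and in the average of both times it fell by 0.64 (adjusted p = 0.0432); it was singled out after its values were seen. Adam9 and Nrd1, other proteins of shedding with a high signal, differed by 0.04 and 0.02 at 2 weeks (adjusted p = 0.635 and 0.839).

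Of 16 genes that restrain the receptors or their signal, 1 rose at 2 weeks and 4 rose at 4 weeks. Of all genes, 3.46% and 5.15% were called higher at these times. Ptpn2, a phosphatase of receptor tyrosine kinases, rose by 0.36 (SE 0.0506, adjusted p = 0.0233) and 0.41 (SE 0.0506, adjusted p = 0.0134), but with the mean of its probe sets in place of the brightest the adjusted p was 0.0543 and 0.0549. At 4 weeks Cd82, a tetraspanin that dampens Egfr, rose by 0.37 (SE 0.0542, adjusted p = 0.0188), and Cblb, a ubiquitin ligase that marks receptors for breakdown, rose by 0.48 (SE 0.0909, adjusted p = 0.0332).

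Spry4, a Sprouty protein induced by ERK that holds back Ras signalling, read 7.03, 7.06 and 6.83 on the controls, 7.50 and 7.40 after 2 weeks and 7.89 and 7.64 after 4 weeks. The groups are ordered without overlap, controls lowest and 4-week arrays highest. It differed by 0.48 at 2 weeks (SE 0.107, adjusted p = 0.0632) and rose by 0.79 at 4 weeks (SE 0.107, 1.73-fold, adjusted p = 0.017); the step between the times, 0.31, had an adjusted p of 0.643. Errfi1 (Mig6), the direct inhibitor of Egfr and a gene of very high signal here, read 13.48, 13.42 and 13.48 on the controls, 13.22 and 13.54 after 2 weeks and 13.11 and 13.42 after 4 weeks, with differences of -0.09 and -0.20 that did not pass. Ptpn1, a phosphatase that acts on Egfr, stood at -0.20 and -0.39 (adjusted p = 0.272 and 0.0563).

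In the relay from the receptors, 19 of 24 listed genes had a value, and 2 rose and 1 fell at each time. Over all genes, 3.46% were called higher and 2.47% lower at 2 weeks, and 5.15% and 4.62% at 4 weeks. Braf, a kinase upstream of ERK, rose by 0.43 (SE 0.0625, adjusted p = 0.0256) and 0.47 (SE 0.0625, adjusted p = 0.0163). Akt1 read 9.41, 9.32 and 9.31 on the controls, 8.85 and 8.51 after 2 weeks and 8.75 and 8.76 after 4 weeks. This kinase of the PI3K arm fell by 0.67 (SE 0.101, adjusted p = 0.0266) and by 0.59 (SE 0.101, adjusted p = 0.0265), with no overlap between the groups.

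Stat3, a transcription factor that receptor kinases can activate, read 10.25, 10.09 and 10.09 on the controls, 10.83 and 10.75 after 2 weeks and 10.32 and 10.30 after 4 weeks. It rose at 2 weeks by 0.64 (SE 0.0658, adjusted p = 0.0129) and stood at 0.16 at 4 weeks (SE 0.0658, adjusted p = 0.201), and the difference between the times, -0.48, had an adjusted p of 0.27. Sos2, a Ras activator, rose at 4 weeks by 0.68 (SE 0.11, adjusted p = 0.0233). Akt2 differed by -0.33 and -0.35 (adjusted p = 0.2 and 0.162) and Pik3r1, a PI3K subunit, by -0.37 at 2 weeks (adjusted p = 0.0567). Map2k2, a kinase upstream of ERK, lay below the controls on each later array (-0.62 and -0.73, adjusted p = 0.109 and 0.063). It passed only in the average of both times, at -0.68 (SE 0.15, adjusted p = 0.0407), and was singled out after its values were seen. In that average 3 relay genes were called higher and 3 lower.

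Of 16 ERK-induced genes, 2 rose at 2 weeks and 3 at 4 weeks, beside 3.46% and 5.15% of all genes. These included the largest differences of the pathway. Dusp6, the phosphatase that switches ERK off and is itself induced by ERK, read 8.71, 8.57 and 8.37 on the controls, 10.48 and 10.52 after 2 weeks and 10.65 and 10.20 after 4 weeks. It rose by 1.95 (SE 0.157, 3.86-fold, adjusted p = 0.00732) and 1.87 (SE 0.157, 3.66-fold, adjusted p = 0.00772), with all later arrays far above the controls. Its call at 2 weeks was lost without control replicate 3 (adjusted p = 0.0508), its call at 4 weeks without replicate 1 of that time (adjusted p = 0.0535), and both were kept in the other omissions of 1 array.

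Fos, an immediate early gene, read 6.82, 6.55 and 6.995 on the controls, 8.14 and 8.23 after 2 weeks and 8.73 and 7.83 after 4 weeks. It rose by 1.399 (SE 0.277, adjusted p = 0.0477) and 1.49 (SE 0.277, adjusted p = 0.0316). Cyclin D1 (Ccnd1), which drives entry into the cell cycle, read 8.71, 8.60 and 8.50 on the controls, 9.64 and 10.66 after 2 weeks and 10.23 and 10.84 after 4 weeks. It differed by 1.54 at 2 weeks (SE 0.329, adjusted p = 0.0561) and rose by 1.93 at 4 weeks (SE 0.329, 3.80-fold, adjusted p = 0.0263). Both genes lay above the controls on each later array.

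The rest of the ERK list was mixed. Egr1 and Ier2, immediate early genes singled out after their values were seen, lay above the controls on each later array and passed only in the average of both times, by 1.25 (SE 0.237, adjusted p = 0.0272) and 0.99 (SE 0.19, adjusted p = 0.0278). Phlda1 read 9.22, 9.08 and 9.47 on the controls, 10.65 and 10.08 after 2 weeks and 9.15 and 10.995 after 4 weeks. Both 2-week arrays lay above all controls, while the 4-week arrays lay far apart (SD 1.31, beside 0.403 at 2 weeks). Its difference of 1.11 at 2 weeks did not pass in limma, which pools the spread over all groups (adjusted p = 0.293). Trib1, an adaptor pseudokinase, lay above the controls on each later array without passing (0.25 and 0.22, adjusted p = 0.15 and 0.179). Dusp4, Dusp5, Fosl1, Ier3, Etv5 and Plaur, looked up after their values were seen, all lay within 0.1 of the control level at both times. All but Dusp5 had mean signals of 5.85 to 6.53, under the array medians of 7.07 to 7.09. Dusp5, Fosl1 and Ier3 each repeated 1 value on 4 arrays. Low signals and ties leave little information on a change in these genes. Egr2 and Etv4 stood at -0.16 and -0.13 at 2 weeks (adjusted p = 0.134 and 0.387) and both at 0.01 at 4 weeks. Myc was erratic, with 8.03, 7.28 and 8.09 on the controls, 8.65 and 9.16 after 2 weeks and 6.58 and 9.79 after 4 weeks. Its differences of 1.11 and 0.39 did not pass (adjusted p = 0.528 and 0.852).

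**Figure D4:**
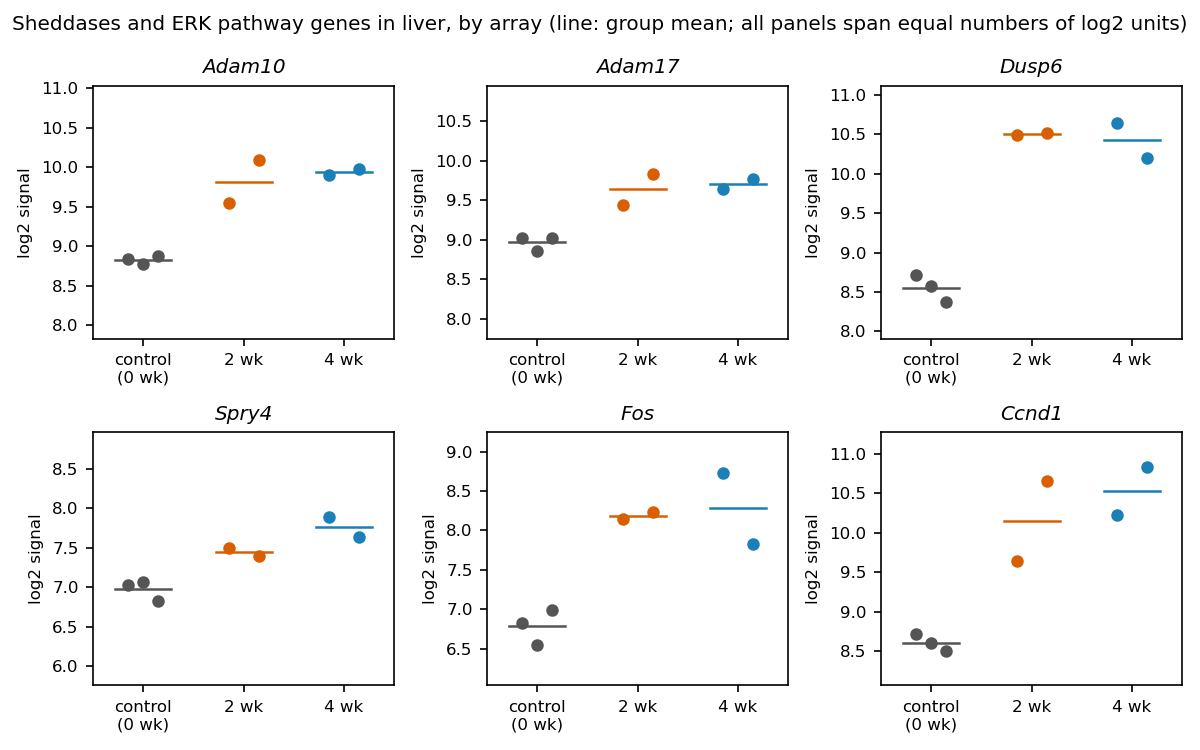
Log2 signal (vertical axis, each panel spanning the same number of log2 units) of the sheddase genes Adam10 and Adam17 and of Dusp6, Spry4, Fos and Ccnd1 on the control, 2-week and 4-week arrays (horizontal axis); points are arrays and lines are group means. In each panel all 4 later arrays lie above the 3 controls, and in Dusp6 the controls end at 8.71 where the later arrays start at 10.20.

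Markers of the other liver cells were read beside these results. The mean of 8 stellate cell markers ran from 8.29 to 8.36 on the controls, from 8.55 to 8.72 at 2 weeks and from 8.49 to 8.50 at 4 weeks, above the controls on each later array, though none of the 8 was called at 2 or 4 weeks. Pdgfrb, a receptor of stellate cells, was called in the average of both times (0.31, adjusted p = 0.0238). For 5 of 8 bile duct markers it ran from 6.55 to 6.62, from 6.62 to 6.78 and from 6.68 to 6.76, and Sox9 alone of these was called, at 4 weeks (0.43, adjusted p = 0.0401) and in the average. Means of the macrophage list (8.34 to 8.55 on the controls, 8.24 to 8.64 later) and of the endothelial list (9.16 to 9.23 and 8.92 to 9.32) overlapped between controls and later arrays. Clec4g, an endothelial lectin, was called at 4 weeks (0.60, adjusted p = 0.0438) and stood at -0.12 at 2 weeks (adjusted p = 0.625). Lymphocyte markers (5.90 to 6.04 and 5.95 to 6.03) and adipocyte markers (6.28 to 6.39 and 6.30 to 6.35) overlapped too, and neutrophil markers lay at 5.67 to 5.74 and 5.75 to 5.80. The means of these lists, like that of the bile duct list, lay under the array medians of 7.07 to 7.09. Some of their genes repeated 1 value on most arrays, such as Plin1 on 6 and S100a9 on 5. Such values say little about the content of these cells. The hepatocyte list, given above, was slightly lower on each later array. Of its genes Tat, an enzyme of tyrosine breakdown, was called in the average of both times (-0.62, adjusted p = 0.0334) and stood at -0.64 and -0.60 at the single times (adjusted p = 0.0712 and 0.07). Tat thus weighs heavily in the list mean. The other genes of the list ran from -0.23 (Asgr1, 4 weeks) to 0.03 (Hnf4a, 4 weeks). The part of these shifts in the values of Nrg4, Erbb3 or the pathway genes was not tested.

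Genes with the pattern most like that of Nrg4 were ranked by Pearson correlation over the 7 arrays among 987 genes whose signal ranged over 1 log2 unit or more. The first 10 were Moxd1 (r = 0.998), Wee1 (0.998), Fam102a (0.997), Thrsp (0.997), Slc50a1, Usp2, Pdxk, Elovl6, Nmrk1 and Crcp (0.983). Their values differ in size rather than in shape. Moxd1 read 10.55, 10.99 and 10.72 on the controls and 6.08, 5.72, 5.74 and 6.17 later, a difference of -4.86 at 2 weeks, whereas Pdxk, the kinase that activates vitamin B6, was at -0.92. Thrsp, a gene tied to fat synthesis, read 12.86, 12.99 and 12.89 on the controls and 9.62, 10.05, 9.83 and 9.97 later. Wee1, an inhibitor of cell division, was at -2.89 at 2 weeks and -2.77 at 4 weeks. With 7 arrays in 2 clear levels the correlation mostly reflects the step from control to Cre, and 133 of the 987 genes had r above 0.9.

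**Figure D5:**
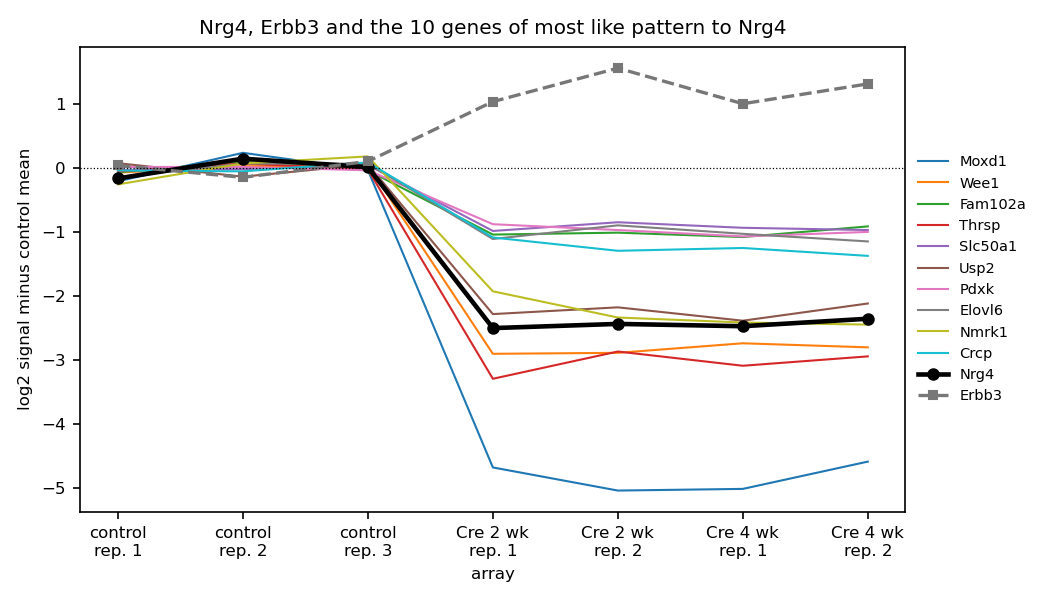
Log2 signal minus the control mean (vertical axis) of Nrg4 (black), Erbb3 (grey, dashed) and the 10 genes whose pattern is most like that of Nrg4 (thin lines) on each of the 7 arrays (horizontal axis); lines join arrays only to guide the eye. The 10 genes step down with Nrg4 on all 4 arrays after Cre, Moxd1 by 4.86 and Pdxk by 0.92 at 2 weeks, while Erbb3 steps up.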

How the data were processed

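Total RNA of 7 livers was read on Affymetrix whole-transcript arrays. The authors deposited 1 log2 signal per probe set and array, made with GCOS version 1.4 per the submitters' processing notes; methods of background correction, normalization and summarisation were not given in the sources used here. Of 21093 probe sets, 17709 had 1 gene symbol in the platform annotation, 187 several and 3197 none, and the probe set with the highest mean stood for each of 16819 genes. No further normalization was applied. limma 3.58.1 (R 4.3.3; lmFit, eBayes) was fitted to all 7 arrays with group as factor (4 residual and 1.69 prior degrees of freedom), two-sided, with Benjamini-Hochberg adjustment over all genes and a threshold of 0.05. The steps were tested on simulated data. Each group holds only 2 or 3 arrays. The p-values set a group difference against the spread of arrays within groups, pooled over all groups and moderated by eBayes.

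The genes and lists were chosen with earlier results of these data known. Named were all listed ligands and receptors, and of each pathway list and comparison the 4 called genes with the smallest adjusted p and the 2 uncalled genes with the highest mean; 10 genes like Nrg4 were named by correlation, leaving out clone-like names. Alternatives were the mean of probe sets, a filter on dim genes, quantile or median scaling, a trended robust variance model, only the groups compared, a replicate block and the omission of each array.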

Additional observations from a re-analysis of the deposited data

How the results depend on the processing

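Scaling by quantiles or medians, the mean of probe sets, the dim-gene filter and the trended variance model left the number of called genes among the 8 tested ligands and receptors at 1 at both times, and Nrg4 kept its size. The filter on genes under the 25th percentile left 12614 genes and raised the pathway count at 2 weeks from 8 to 16. It dropped Nrg1 of the ligands and receptors and Rhbdl2 of the called pathway genes. Fitting only the groups compared gave 0 of the 8 ligands and receptors and 3 pathway genes at 2 weeks, where 276 of all genes were called in place of 997; at 4 weeks it gave 1 and 15, and 1948 in place of 1643. Leaving out single arrays gave 0 to 2 and 0 to 16 at 2 weeks, and 0 to 1 and 0 to 15 at 4 weeks.

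With the replicate number as a block, 0 of the ligands and receptors and 0 pathway genes were called at either time, and over all genes 0 in place of 997 at 2 weeks and 2 in place of 1643 at 4 weeks; Nrg4 stood at -2.46 and -2.41. Deviations of same-numbered arrays from their group means correlated between -0.065 and 0.111. In a group of 2 arrays the deviations are equal and opposite, so these correlations cannot show whether same-numbered arrays share a batch. Of 612 alternative values of single genes, 457 kept their side of the threshold, 141 lost a call, 14 gained one and 0 turned direction; these cover the ligands, receptors and 14 called pathway genes, not the other genes named. Where no construction of an alternative shows it, the cause was not tested. The small number of arrays limits precision.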
